A study of Mus musculus with 12 samples.

Results

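Airway secretory cell proteins are the proteins that the secretory cells of the conducting airway pour onto its surface. They were followed here through 9 genes chosen by symbol from the deposited gene table, out of 55679 genes listed: Scgb1a1, Scgb3a1, Scgb3a2, Bpifa1, Bpifb1, Muc5b, Reg3g, Ltf and Pigr. The lungs and hearts came from 6 adult male mice on the 129S6/SvEvTac background, 3 wild type (WT) and 3 homozygous for an Adam19 knockout (KO) allele in every cell of the body, in which a tdTomato reporter construct takes the place of exons 6 and 7 of Adam19. Each group of 3 libraries is 1 genotype in 1 organ. The whole organ was frozen and its total RNA sequenced on strand-specific libraries, 1 per organ and 12 in all, and within a genotype a replicate number names 1 mouse in both organs. Mouse identifiers carry a prefix that no WT and KO mouse share, so what the prefix marks and the genotype cannot be told apart. Within a genotype, WT replicates 1 and 2 share a prefix, as do KO replicates 2 and 3. All gene values below are the authors' values on a log2 scale, where a difference of 1 is a 2-fold difference in RNA, and RNA from fewer cells of a type and from less RNA in each cell cannot be told apart in whole organs.

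The airway lining of the mouse is built mainly of ciliated cells and of club cells, which store and release secretory proteins. Secretoglobins are small dimeric proteins of this secretion, and Scgb1a1 (also called CC10 or CCSP) is the classical marker of club cells. Bpifa1 (SPLUNC1) and Bpifb1 (LPLUNC1) belong to the family of lipid-binding proteins related to the bactericidal/permeability-increasing protein, and Muc5b is the gel-forming mucin that mucociliary clearance depends on. Reg3g is an antibacterial C-type lectin, Ltf is the iron-binding protein lactoferrin, made by airway gland cells and also stored in neutrophil granules, and Pigr is the receptor that carries polymeric IgA and IgM across the epithelium.

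The libraries held 17674788 to 28043361 estimated counts in the lung and 18392292 to 35862932 in the heart. Adam19 read 9.12 to 9.41 in WT lungs and 3.21 to 4.45 in KO lungs, and 9.17 to 10.27 in WT hearts and 6.01 to 6.68 in KO hearts, in the direction of the labels. The organs carried their own markers, with Sftpc, the surfactant protein of alveolar type 2 cells, at 16.32 to 17.28 in the lungs and Myh6, the heart muscle myosin, at 20.05 to 20.44 in the hearts. Myh6 was also present at 12.46 to 14.24 in the lungs. The 7SL RNA Rn7s1 took 2.18% to 33.7% of the estimated counts of a lung library, so one alternative scaling left it out. One heart, that of KO replicate 1, stood apart from the other 5 in all 9 members and is described below, and the fitted heart differences are also given without it.

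The upstream sequences of 3 members that recur below are shown first. Scgb1a1 is the most abundant coding transcript of the lung, and Bpifa1 varied widely between lungs. Bpifb1 has a pair of annotated starts among which its reads were divided. The sequences were not tested against any of these values. Each is the 250 bases before the annotated start on GRCm39 (mm39), 5′ to 3′ on the strand of the gene, and the coordinates are those of the window. Capitals mark the letters searched for the lung factor NKX2-1 (CTCAAG, or alternatively CAAGTG) and for the FOXA factors (the letters TGTTTAC, and equally TGTTTGC, and further TATTTAC, and finally TATTTGC), on both strands.
Scgb1a1, chr19:9065327-9065576, minus strand: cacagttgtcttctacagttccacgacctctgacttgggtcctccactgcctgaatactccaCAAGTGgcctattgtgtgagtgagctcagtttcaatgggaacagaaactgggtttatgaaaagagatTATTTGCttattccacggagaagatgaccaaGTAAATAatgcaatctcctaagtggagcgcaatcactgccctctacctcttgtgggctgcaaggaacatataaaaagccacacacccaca
Bpifa1, chr2:153984550-153984799, plus strand: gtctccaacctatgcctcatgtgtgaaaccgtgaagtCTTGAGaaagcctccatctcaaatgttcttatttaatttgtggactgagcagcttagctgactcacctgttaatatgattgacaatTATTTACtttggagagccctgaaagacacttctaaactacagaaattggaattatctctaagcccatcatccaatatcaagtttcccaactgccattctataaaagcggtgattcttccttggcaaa
Bpifb1 upstream first exon, chr2:154032488-154032737, plus strand: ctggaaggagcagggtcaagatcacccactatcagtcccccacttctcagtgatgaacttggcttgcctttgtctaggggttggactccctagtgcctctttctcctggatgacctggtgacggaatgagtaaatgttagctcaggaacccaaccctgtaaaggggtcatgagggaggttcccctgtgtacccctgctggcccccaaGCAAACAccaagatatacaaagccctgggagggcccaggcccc
Bpifb1 downstream first exon, chr2:154042049-154042298, plus strand: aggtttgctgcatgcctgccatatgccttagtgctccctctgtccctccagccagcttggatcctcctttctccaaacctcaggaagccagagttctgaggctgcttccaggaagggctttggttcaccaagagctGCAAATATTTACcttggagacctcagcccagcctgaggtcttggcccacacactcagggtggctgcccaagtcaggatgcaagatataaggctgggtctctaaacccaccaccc

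The Scgb1a1 window held 1 NKX2-1 match, CAAGTG at 188 to 183 bases before the start, 2 FOXA matches, and a TATA motif (TATAAA) 22 to 17 bases before the start. In the Bpifa1 window there was 1 NKX2-1 match, 1 FOXA match and a TATA motif 29 to 24 bases before the start. Neither Bpifb1 window held an NKX2-1 match, while the upstream one held 1 FOXA match and the downstream one 2, which share bases. The 9 starts examined belong to 8 members, with 2 starts for Bpifb1 and no window examined for Scgb3a2. NKX2-1 letters were found before 4 of these starts and FOXA letters before 5. They were found in 24.4% and 11.5% of 21593 windows of the same length before coding genes, with 1 start for each gene. Both Bpifb1 starts are among the 5, so the counts and the shares are not fully alike. STAT letters (TTCNNNGAA) were found before 3 of the 9 starts and in 7.71% of all windows, C/EBP letters (TTGCNNAA) before 1 and in 9.35%, and TATA letters before 3 and in 11.9%. The pair of NKX2-1 matches before Scgb3a1 overlap each other. A match is a run of letters and was not tested as a binding site.

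In the annotation (GENCODE vM39 on GRCm39), Bpifa1 (chr2:153984800-153991139) and Bpifb1 (chr2:154032738-154062289) lie on the same strand 41.6 kb apart, with 9 and 16 exons. Scgb1a1 (chr19:9061000-9065326) has 3 exons and a coding length of 288 bases. Muc5b (chr7:141392807-141426821) has 49 exons and a transcript of 14964 bases, the longest of the members. Reg3g lies at chr6:78443246-78445859, Ltf at chr9:110848339-110871835, Pigr at chr1:130754397-130779986 and Scgb3a1 at chr11:49549630-49555945. Scgb3a1 shares its chromosome with Adam19, and the main start of Scgb3a1 lies 3.52 Mb past the end of the targeted gene. No other annotated gene matched a member over at least 100 bases at an identity of 90% or more, apart from Pigr, in which a stretch of 101 bases (2.61% of the transcript) recurs at up to 100% in 137 other genes.

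Scgb1a1 was the most abundant of all coding genes in the lung. Per transcript length, its median over the 6 lungs was 98160 of every 1000000 coding transcripts (range 50320 to 128600), followed by Scgb3a2 at rank 14 with 4395 (3188 to 8077) and Scgb3a1 at rank 605 with 211 (91.4 to 1055). The ranges of these 3 secretoglobins did not overlap. The other members overlapped each other across lungs and cannot be put in order beyond their spread: Bpifa1 had a median of 72.8 (22.0 to 400.4), Bpifb1 52.6 (23.04 to 182.9), Reg3g 26.1 (4.11 to 65.1), Pigr 25.6 (14.1 to 36.3), Ltf 15.5 (6.05 to 41.3) and Muc5b 11.7 (5.23 to 30.7). Together the 9 members made up 6.83%, 10.4% and 5.40% of the coding total in the WT lungs and 10.1%, 12.2% and 13.5% in the KO lungs, most of it Scgb1a1. In the hearts this share ran from 0.000537% to 0.00651% in 5 libraries and was 0.0390% in that of KO replicate 1.

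**Figure D1:**
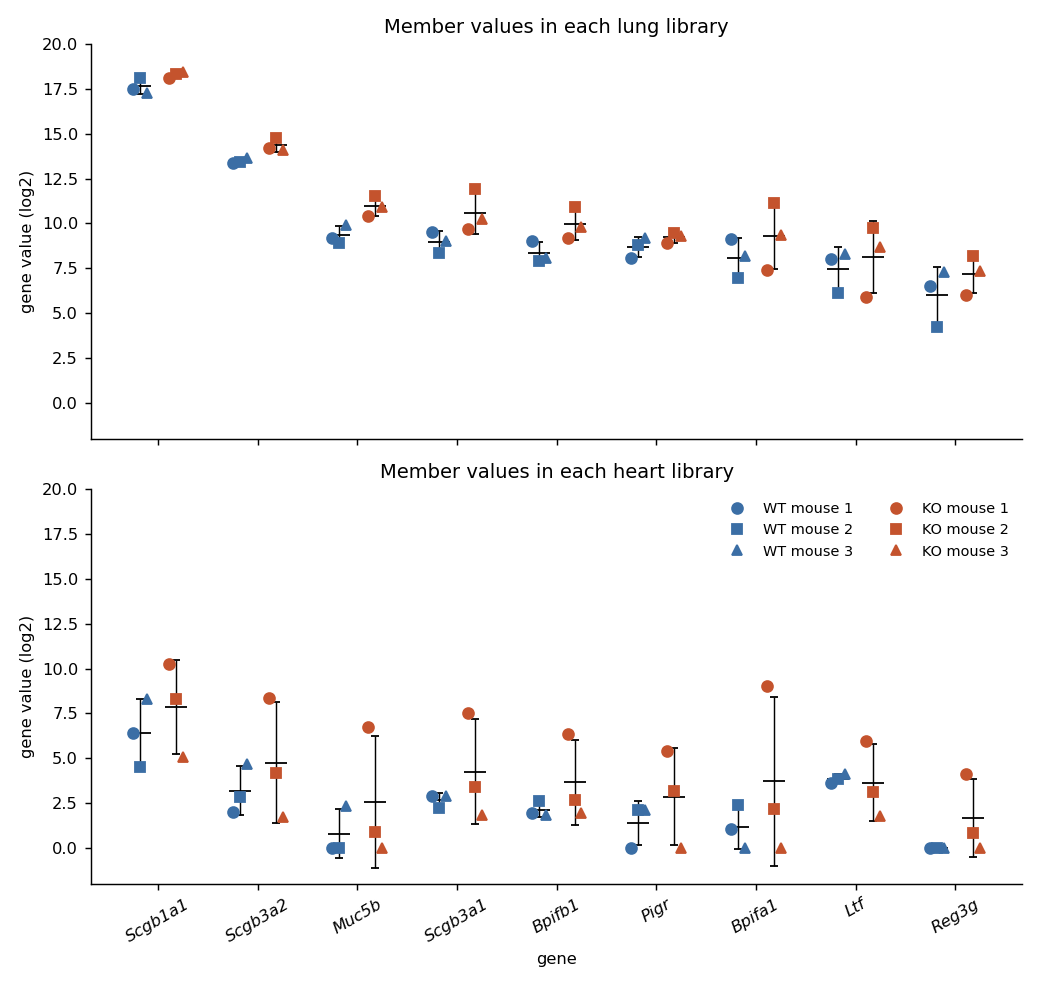
Gene values (log2) of the 9 members in each lung library (upper panel) and each heart library (lower panel), WT in blue and KO in red, with the symbol giving the mouse. Black ticks and bars are the mean and SD of 3 libraries, and the heart of KO mouse 1 is the highest heart for every member.

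The first question was whether the members differed between KO and WT lungs. All 9 had a higher mean in the KO lungs, and none passed the test across all genes (limma, adjusted p under 0.05, fold of at least 1.5 and a group mean of at least 6). The share of all 16551 tested lung genes called higher was 0.0363%, so a call was rare for any gene. At an unadjusted p under 0.05, 5 of the 9 members were higher (Muc5b, Scgb3a2, Bpifb1, Scgb3a1 and Scgb1a1), as 981 of all 16551 genes were in either direction. In 4 of the 9, Scgb3a1, Scgb3a2, Bpifb1 and Muc5b, every KO lung lay above every WT lung, which holds for 6.41% of all tested genes. These members were chosen with results of these data known, so their counts describe the list and test nothing.

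Among the secretoglobins, Scgb1a1 read 17.51, 18.12 and 17.28 in WT lungs and 18.11, 18.32 and 18.41 in KO lungs. The highest WT lung and the lowest KO lung nearly coincided, so the groups overlapped narrowly. The log2 difference was 0.64 (SE 0.27, limma adjusted p = 0.820). Scgb3a2 read 13.39, 13.41 and 13.62 in WT lungs and 14.18, 14.75 and 14.10 in KO lungs. It had the tightest WT group of the members and no overlap between genotypes. The log2 difference of 0.87 (SE 0.20) corresponds to 1.83-fold (limma adjusted p = 0.727). Scgb3a1, a secretoglobin of the larger airways, read 9.52, 8.35 and 9.04 in WT lungs and 9.66, 11.91 and 10.23 in KO lungs. The lowest KO lung stood just above the highest WT lung, and KO replicate 2 stood far above the rest. Its log2 difference was 1.63 (SE 0.53, limma adjusted p = 0.806).

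Of the lipid-binding proteins, Bpifa1 read 9.11, 6.93 and 8.19 in WT lungs and 7.41, 11.15 and 9.38 in KO lungs. The lowest KO lung fell inside the WT range, and the log2 difference of 1.24 had an SE of 0.86 (limma adjusted p = 0.841). Bpifb1 read 9.05, 7.88 and 8.09 in WT lungs and 9.19, 10.91 and 9.82 in KO lungs. The genotypes did not overlap, by a margin smaller than the spread within either group. The log2 difference was 1.63 (SE 0.44, limma adjusted p = 0.806).

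Muc5b had the lowest p of the members. It read 9.19, 8.92 and 9.93 in WT lungs and 10.41, 11.51 and 10.93 in KO lungs, with every KO lung above every WT lung. The log2 difference of 1.60 (SE 0.33) corresponds to 3.04-fold, with a 95% interval from 0.86 to 2.35 on the log2 scale, an unadjusted p of 0.000933 and a limma adjusted p of 0.533. Its relative Muc5ac, the other gel-forming airway mucin, was far lower, at 3.26, 4.92 and 4.46 in WT lungs and 5.33, 5.96 and 5.81 in KO lungs. The Muc5ac difference of 1.49 (SE 0.46) did not pass the test either (limma adjusted p = 0.806).

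In Reg3g, Ltf and Pigr the genotypes overlapped. Reg3g read 6.50, 4.24 and 7.28 in WT lungs and 6.04, 8.18 and 7.35 in KO lungs, with a log2 difference of 1.18 (SE 0.78). Ltf read 8.02, 6.10 and 8.30 in WT lungs and 5.91, 9.77 and 8.68 in KO lungs. Its lowest library was a KO lung and its highest another KO lung, and the difference of 0.65 (SE 0.92) turned to −0.18 without KO replicate 2. Pigr read 8.07, 8.81 and 9.19 in WT lungs and 8.89, 9.47 and 9.31 in KO lungs, a difference of 0.54 (SE 0.29). The limma adjusted p was 0.841, 0.901 and 0.839 for Reg3g, Ltf and Pigr.

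**Figure D2:**
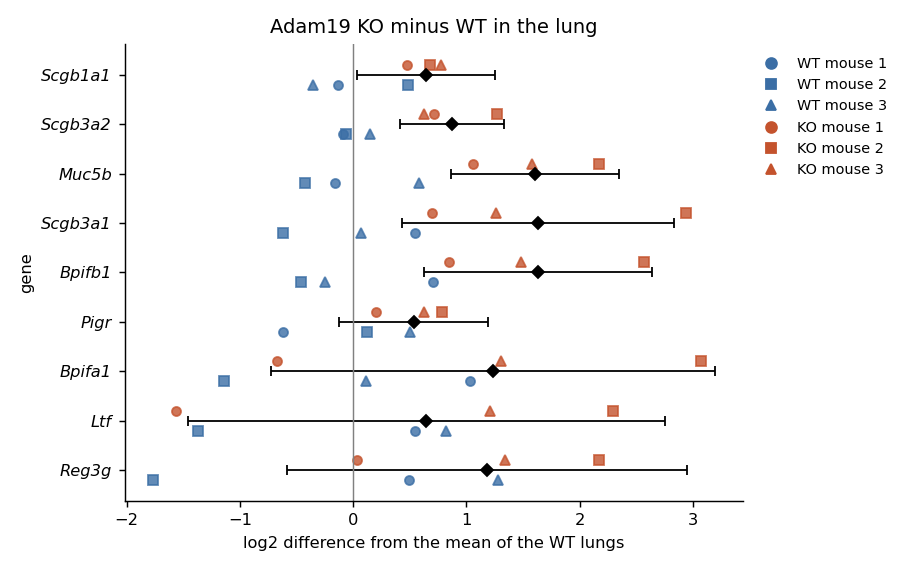
Difference of each lung library from the mean of the WT lungs (log2) for the 9 members, with WT mice in blue and KO mice in red. Diamonds and bars are the fitted KO minus WT difference and its 95% interval, which lies above 0 for Scgb1a1, Scgb3a2, Muc5b, Scgb3a1 and Bpifb1, all unadjusted.

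The exact two-sided permutation test over the 3 KO and 3 WT lungs cannot go below p = 0.10, and it gave that value for Scgb3a1, Scgb3a2, Bpifb1 and Muc5b and 0.2 to 0.6 for the other members. Leaving out 1 lung at a time, the difference ran from 0.32 to 2.19 for Bpifa1, 0.30 to 1.82 for Reg3g, 0.98 to 2.10 for Scgb3a1, 0.23 to 0.78 for Pigr and −0.18 to 1.75 for Ltf, and from 1.32 to 1.90 for Muc5b, 1.16 to 2.03 for Bpifb1, 0.67 to 0.99 for Scgb3a2 and 0.47 to 0.89 for Scgb1a1. The lowest value came without KO replicate 2 for Bpifa1 and Scgb3a1 and without WT replicate 2 for Reg3g, and without WT replicate 1 for Pigr. Without WT replicate 2 and KO replicate 2 together, a setting chosen after seeing the data, the difference was 1.11 for Muc5b, 0.93 for Bpifb1, 0.87 for Scgb1a1, 0.67 for Scgb3a1, 0.64 for Scgb3a2 and 0.47 for Pigr, and −0.26, −0.20 and −0.86 for Bpifa1, Reg3g and Ltf.

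The members differed widely in how much they varied between lungs of 1 genotype. The SD within genotype, pooled over WT and KO, was 0.26 for Scgb3a2 and 0.33 for Scgb1a1, near the median of 0.29 over all tested lung genes. Ltf (1.64), Bpifa1 (1.53) and Reg3g (1.35) varied most, and between 97.9% and 98.3% of all tested lung genes had a smaller SD. Scgb3a1 (0.92), Bpifb1 (0.76), Muc5b (0.54) and Pigr (0.45) lay between. Genes of low abundance vary more, so the members were also set beside genes within 0.5 of their own mean. Bpifa1 exceeded 99.8% of 2723 such genes, Ltf 99.8% of 2336, Scgb3a1 99.7% of 2540, Bpifb1 99.3% of 2677, Reg3g 98.8% of 1624, Muc5b 96.5% of 2341 and Pigr 90.7% of 2708. When transcripts were summed in place of the authors' gene values, the SD of Ltf was 1.18 and that of Pigr 0.32.

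**Figure D3:**
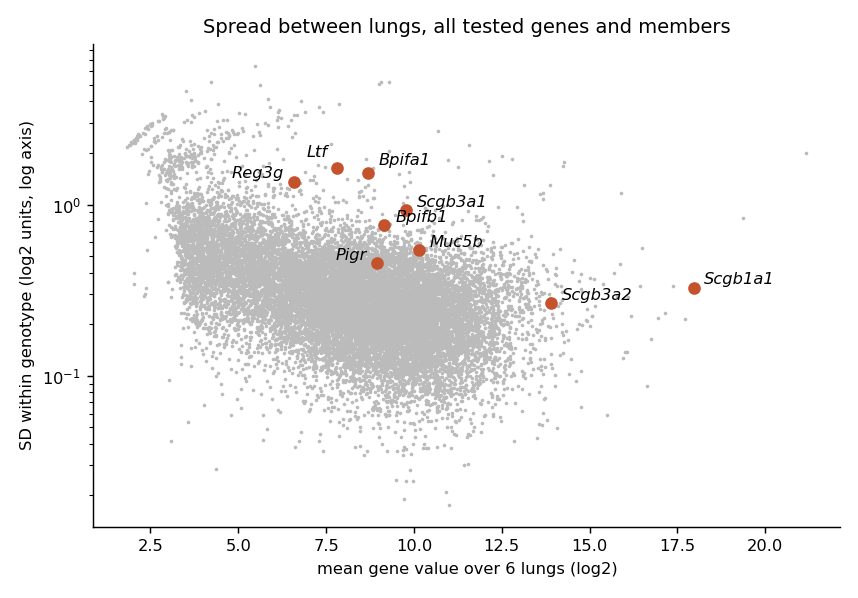
SD within genotype (log2 units, log axis) against the mean gene value over 6 lungs for all 16551 tested lung genes (grey) and the members (red). Ltf, Bpifa1 and Reg3g lie at the upper edge of genes of their abundance, and Scgb1a1 and Scgb3a2 lie within the bulk of the spread.

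Most members varied together from lung to lung, apart from Scgb1a1. Over the 6 lungs, after subtracting each genotype's mean, the 15 pairs among Scgb3a1, Bpifa1, Bpifb1, Muc5b, Reg3g and Ltf had a median Pearson r of 0.86 (0.55 to 0.96). The closest pair was Scgb3a1 with Bpifa1 (Pearson r = 0.96, Spearman rho = 1). These 6 genes are the members with an SD over 0.5. Scgb3a2, the least variable member, correlated with the same 6 genes at r of 0.56 to 0.79. Pigr correlated with them at −0.10 to 0.67, and Scgb1a1 with the other 8 members at −0.63 to 0.07. In 8 of the 9 members the highest lung was that of KO replicate 2, and in 5 the lowest was that of WT replicate 2. The shares of all tested genes highest or lowest in these lungs were not counted. KO replicate 2 was also the lung library with the most estimated counts (28043361). Whether being highest or lowest in these lungs is particular to the members, and the part of depth in it, was not tested. These correlations are descriptions over 6 libraries that share their depth, scaling and dissection among all genes. How often pairs of other genes with a like spread correlate as highly was not counted.

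**Figure D4:**
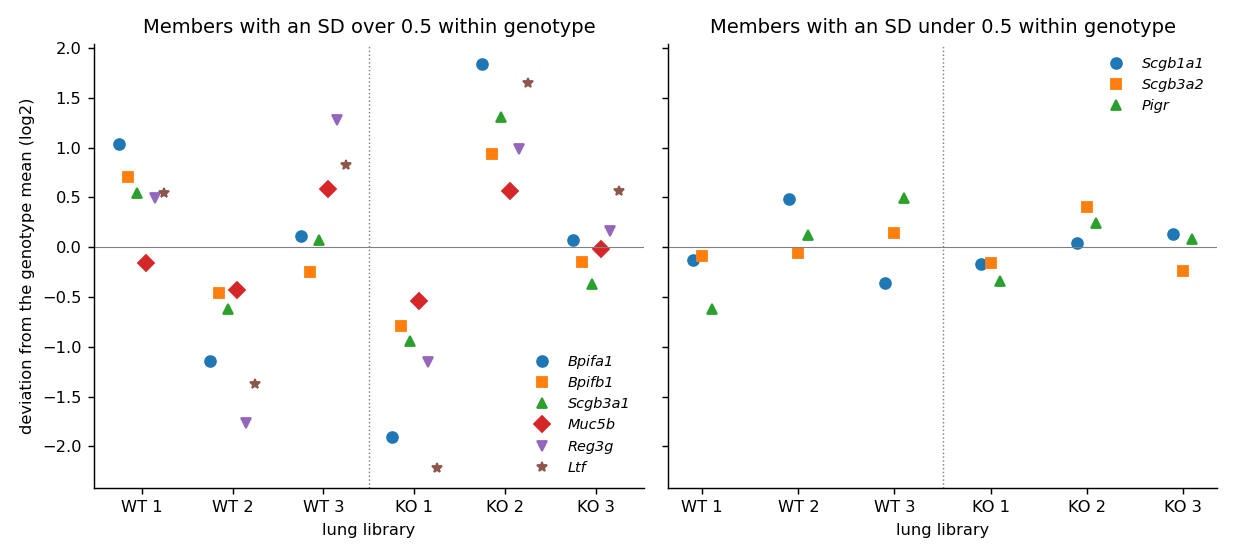
Deviation of each lung library from the mean of its genotype (log2) for the members with an SD over 0.5 (left) and under 0.5 (right), with the dotted line between WT and KO lungs. On the left the points of WT replicate 2 and KO replicate 1 lie below 0 and those of KO replicate 2 above it for all 6 genes, and on the right the points lie between −0.62 and 0.50.

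Markers of airway cartilage, which surrounds only the largest airways of the mouse, varied between the same lungs. Acan, the cartilage proteoglycan, read 6.05, 0 and 2.36 in WT lungs and 3.49, 7.65 and 5.79 in KO lungs, and Col2a1, the cartilage collagen, 4.51, 3.31 and 1.18 against 3.34, 6.07 and 4.36. Both were highest in KO replicate 2, as were 9 of the 13 cartilage markers, and Acan was listed at 0 in WT replicate 2. The same lung was highest for 15 of 25 other club cell genes, 9 of 15 ciliated and 5 of 9 basal cell markers, so this was not particular to cartilage. It was highest for 7 of 25 goblet cell and gland genes and 1 of 17 neutrophil markers. Of the 11 alveolar type 2, 8 alveolar type 1 and 9 plasma cell genes, 0 were highest there. The share of all genes highest in KO replicate 2 was not counted. The summed level of the list ran from 8.44 to 9.41 in WT lungs and from 8.88 to 10.60 in KO lungs, no marker was at 0 in every lung, and Matn1 and Snorc were at 0 in 3 and 4 of the 6 lungs. Of 7 cartilage markers tested, none was called and 6 had a higher mean in KO lungs (median log2 difference 0.64, against 0.01 over all tested genes). The part of the cartilage content in the members' spread was not tested.

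The other genes of the airway lining were taken from hand-written lists. None of the 25 other club cell genes tested was called, 23 had a higher mean in KO lungs and 3 had an unadjusted p under 0.05, all higher, with a median log2 difference of 0.24. Among them Cyp2a5, a club cell cytochrome P450, read 10.99, 11.21 and 10.98 in WT lungs and 12.02, 13.56 and 12.03 in KO lungs (log2 difference 1.48, SE 0.37, limma adjusted p = 0.783). Cyp2f2, another club cell P450 of high abundance, read 14.61, 14.96 and 14.64 in WT lungs and 15.00, 15.37 and 14.96 in KO lungs. The summed level of the list was 16.71 to 17.16 in WT lungs and 17.07 to 17.59 in KO lungs, so the genotypes overlapped.

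Of 15 ciliated cell markers tested none was called, 12 had a higher mean in KO lungs and 5 had an unadjusted p under 0.05, all higher (median log2 difference 0.38). Foxj1, the regulator of motile cilia, read 9.45, 9.62 and 9.44 in WT lungs and 9.77, 9.98 and 9.77 in KO lungs, and the axonemal dynein Dnah5 10.28, 10.63 and 11.17 against 11.05, 11.80 and 11.34. All 11 alveolar type 2 markers were tested, none was called and 2 had a higher mean in KO lungs, with a median of −0.23. An unadjusted p under 0.05 was found for 2 of them, Sftpc (−0.67) and Sftpd (−0.43), both lower. Their summed level was 18.85 to 19.07 in WT lungs and 18.49 to 18.71 in KO lungs.

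Genes that regulate secretory cells were examined next. Of 19 tested regulators and Notch genes none was called and 12 had a higher mean in KO lungs (median 0.06), with 1 higher (Notch3, 0.44) and 1 lower (Xbp1, −0.37) at an unadjusted p under 0.05. Nkx2-1, the lung epithelial factor, read 9.99, 9.69 and 9.04 in WT lungs and 9.76, 9.43 and 9.68 in KO lungs. Spdef, a driver of goblet cell maturation, was low, at 3.75 to 5.35 in WT lungs and 4.08 to 5.13 in KO lungs. Of the goblet cell and gland list, 13 of 25 genes were abundant enough to test, none was called and 9 had a higher mean in KO lungs (median 0.25). The gland peroxidase Lpo was at 0 in every lung. Of the 32 relatives of the members that are not members themselves, 15 were at 0 in every lung, Bpifa5 among them. The 20 tested genes of that list include the 9 members, none was called, and all 20 had a higher mean in KO lungs, with a median of 0.59.

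The cargo of Pigr and the other source of Ltf were examined in the same way. Of 8 tested genes of polymeric immunoglobulin and plasma cells none was called, 6 had a higher mean in KO lungs and 4 had an unadjusted p under 0.05, all higher (median 0.60). Igha read 8.48, 9.08 and 9.16 in WT lungs and 10.02, 9.59 and 9.51 in KO lungs, and Jchain, which joins the polymers, 7.66, 8.52 and 9.25 against 9.81, 9.16 and 9.22. The summed level of this list overlapped between genotypes (13.20 to 13.49 in WT and 13.44 to 13.67 in KO lungs). Neutrophil markers were called in no case among 10 tested, and 9 had a higher mean in KO lungs (median 0.23). The neutrophil granule genes Elane (0 in every lung) and Camp (0.33 to 2.72) were at or near 0 in the lungs, while S100a8 lay between 8.21 and 8.95. In the lung of KO replicate 2, where Ltf was highest, the granule gene Lcn2, which airway epithelium also makes, read 10.24 (9.68 to 10.17 in the others), the 1 of the 17 neutrophil markers that was highest there. The part of neutrophils in the Ltf values was not tested.

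Airway basal cell markers and markers of neuroendocrine and tuft cells were low. Of 5 basal cell markers tested all 5 had a higher mean in KO lungs (median 0.41), none called, and Krt5 read 1.14 to 2.09 in WT lungs and 2.18 to 3.39 in KO lungs. Of 6 neuroendocrine and tuft cell markers tested 3 had a higher mean (median −0.10). Of 8 alveolar type 1 markers tested 3 had a higher mean (median −0.01), and 1, Hopx (−0.63), was lower at an unadjusted p under 0.05. Heart muscle markers in the lung were lower in mean for 9 of 10 (median −0.40, with Myh6 at −0.84 and an unadjusted p of 0.0231), red blood cell markers for 6 of 6 (median −1.08), and of 9 salivary or oesophageal genes 2 were abundant enough to test (median −0.05). None of the genes of these lists was called between KO and WT lungs.

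In the hearts Scgb1a1 was measurable in every library, and most other members rested on few counts in 5 of the 6. Scgb1a1 read 6.39, 4.54 and 8.32 in WT hearts and 10.23, 8.31 and 5.06 in KO hearts. Its estimated counts there ran from 12.5 to 1299, against 155403 to 505332 in the lungs. Scgb3a2 read 2.01, 2.86 and 4.69 in WT hearts and 8.36, 4.19 and 1.73 in KO hearts. Bpifa1 read 1.06, 2.38 and 0 in WT hearts and 9.02, 2.15 and 0 in KO hearts, which corresponds to at most 1.83 estimated counts in 5 hearts and 663 in that of KO replicate 1. Ltf read 3.62, 3.87 and 4.10 in WT hearts and 5.98, 3.10 and 1.79 in KO hearts, and in all but KO replicate 1 this rested on 1.03 to 4.69 estimated counts. Reg3g was listed at 0 in every WT heart and read 4.14, 0.84 and 0 in KO hearts. A count of 3 would read between 1.89 and 2.80 in a heart library, so values below that range carry no weight.

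The heart of KO replicate 1 was the highest of the 6 hearts for all 9 members. It exceeded the next heart by 6.65 log2 units for Bpifa1, 4.39 for Muc5b, 4.10 for Scgb3a1, 3.72 for Bpifb1, 3.67 for Scgb3a2, 3.30 for Reg3g, 2.22 for Pigr, 1.91 for Scgb1a1 and 1.88 for Ltf. Its estimated counts were 187.9 for Scgb3a1, 87.7 for Bpifb1 and 110.3 for Muc5b, against at most 9.68, 5.30 and 1.88 in the other 5 hearts. No member was called between KO and WT hearts, where 0.0457% of 15303 tested genes were called higher, and only Scgb1a1, Scgb3a2 and Ltf passed the filter on low values. Ltf passed on gene values of 3.62 to 4.10 in the WT hearts that rest on 1.03 to 2.46 estimated counts, and it did not pass when transcripts were summed, so its heart level and heart difference carry little weight. Their log2 differences were 1.45 (SE 1.26), 1.58 (SE 1.46) and −0.24 (SE 0.93), with limma adjusted p of 0.794, 0.809 and 0.958. Without KO replicate 1 they were 0.27, −0.22 and −1.42. In 0 of the 9 members did every KO heart lie above every WT heart, against 7.82% of all tested heart genes, and the exact permutation p ran from 0.3 to 0.9.

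Set against the lung of the same mouse, the heart of KO replicate 1 was unlike the others. In that mouse Bpifa1 was higher in the heart (9.02) than in the lung (7.41), and Ltf was level (5.98 and 5.91). The members' median difference, heart minus lung, was −2.81 in this mouse and −6.11 to −9.31 in the other 5. Scgb1a1 in this heart stood at 0.426% of the lung's level, and Scgb3a1 at 22.4%, Muc5b at 7.97% and Pigr at 8.95%. Proportions between members in this heart therefore differed from those in the lung of the same mouse, with Scgb1a1 the least and Bpifa1 the most represented. The 6 alveolar type 2 markers plotted beside the members had a median heart minus lung difference of −9.51 in this mouse, inside the range of −9.14 to −12.09 in the other 5. Of these markers, Sftpd (−7.82) and Sftpa1 (−8.35) were also highest in this mouse, against −8.92 for the next mouse in both.

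**Figure D5:**
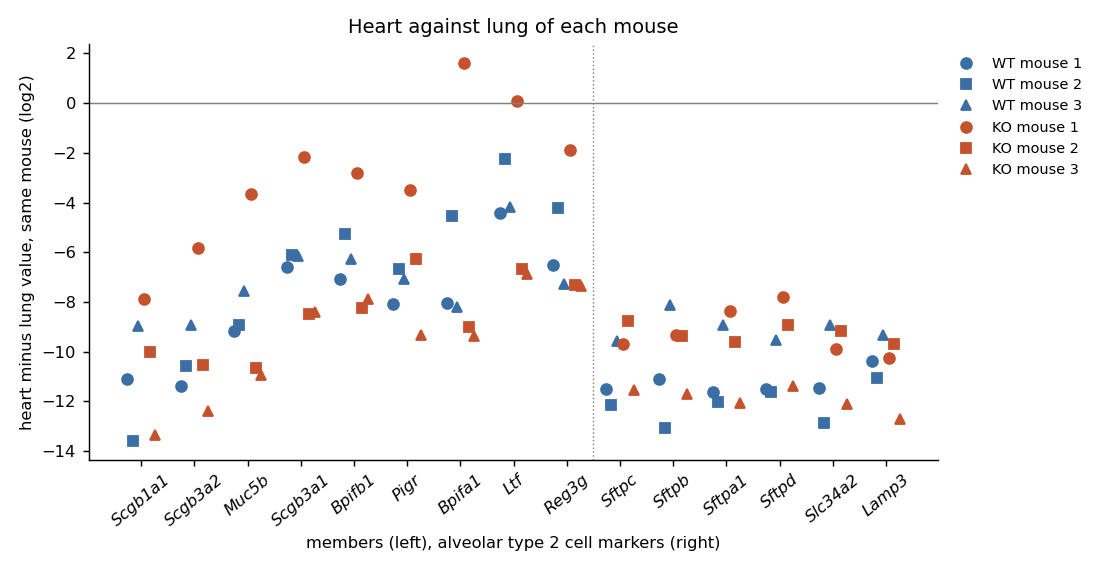
Heart minus lung gene value of the same mouse (log2) for the 9 members (left of the dotted line) and 6 alveolar type 2 cell markers (right), WT mice in blue and KO mice in red. KO mouse 1 is the highest of the 6 mice for every member, with Bpifa1 and Ltf at or above 0, and lies among the other mice for Sftpc, Sftpb, Slc34a2 and Lamp3.

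Some other genes of the airway lining were also highest in that heart. The club cell genes Cyp2f2 and Cyp2a5 read 9.01 and 8.66 there and at most 6.04 and 3.32 in the other 5 hearts. Foxj1 and Dnah5 of ciliated cells read 4.05 and 6.18, against at most 1.86 and 3.04. Krt15, a basal cell keratin, read 3.20 in this heart and 0 in the other 5. Of the lists, 16 of 25 other club cell genes, 12 of 15 ciliated markers and 4 of 9 basal cell markers were highest there. So were 6 of 9 polymeric immunoglobulin and plasma cell genes and 7 of 25 goblet cell and gland genes. The same held for 2 of 11 alveolar type 2 markers, 2 of 8 alveolar type 1 markers and 0 of 13 cartilage markers. The share of all genes highest in this heart was not counted. Summed levels in this heart were 14.78 for the club list (14.68 to 14.91 in the others) and 13.12 for ciliated markers (12.56 to 13.11). They were 12.70 for the goblet and gland list (12.86 to 13.57), 7.68 for basal cell markers (5.88 to 7.23) and 11.29 for plasma cell genes (10.87 to 11.08). A summed level follows the most abundant genes of its list. Ldhb and Gsto1 of the club list and Ptgds of the gland list were called higher in heart than in lung. Tubb4b was the only ciliated marker not called higher in lung. The sums of these lists therefore do not show whether RNA of those airway cells was ordinary in this heart. The alveolar markers Sftpc (6.90) and Ager (5.83) lay there between the values of the other hearts (4.78 to 7.71 and 3.68 to 6.36). The part of airway or lung tissue in the heart values was not tested.

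All 9 members were called higher in lung than in heart, in both genotypes together, where 30.1% of 17666 tested genes were called higher, and within WT mice (29.3% of all) and within KO mice (28.7% of all). With 6 of the 9 too low to test in the hearts alone, those genes entered through the lungs and had to differ, so this is a description of where they are expressed. Higher genes made up 58.7% of all calls here, 75.9% with limma-voom and 81.0% with equal library totals, and each member remained called higher under those scalings. The log2 difference over both genotypes was 10.81 (SE 0.76) for Scgb1a1, 9.93 (SE 0.85) for Scgb3a2, 8.48 (SE 0.94) for Muc5b and 4.05 (SE 0.75) for Ltf. The order of the low members rests on heart values near 0 counts, since Ltf came to 5.16 to 5.92 when transcripts were summed and, with an offset of 10, stood at 3.28 beside 3.20 for Reg3g. It was 6.82 for Pigr, 6.32 for Scgb3a1, 6.26 for both Bpifa1 and Bpifb1 and 5.77 for Reg3g. Limma adjusted p ran from 3.2e-08 for Scgb1a1 to 0.0005 for Bpifa1. Without the heart of KO replicate 1 the difference was larger for every member, at 11.4 for Scgb1a1, 10.84 for Scgb3a2, 9.54 for Muc5b, 7.58 for Bpifa1, 7.45 for Pigr, 7.13 for Scgb3a1, 6.93 for Bpifb1, 6.39 for Reg3g and 4.64 for Ltf. Within KO mice, Bpifa1 went from 5.59 to 8.24 without that heart, Muc5b from 8.40 to 10.51 and Scgb3a1 from 6.35 to 7.98, and all 9 remained called, at 5.67 for Ltf to 11.59 for Scgb1a1. Bpifa1 within KO mice lost its call without heart replicate 2, without heart replicate 3 and without lung replicate 2 (log2 differences of 4.80, 3.73 and 4.67, against 5.59 with all libraries). Reg3g was listed at 0 in all WT hearts. The mean log2 value of its WT lungs (6.01) lay 11.4-fold above the mean floor of 3 counts in the WT hearts (2.495). This is a lower bound for the mean only, as single WT lungs ran from 4.24 to 7.28.

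The KO minus WT difference itself was compared between lung and heart. No member differed by that test (limma adjusted p from 0.884 to 0.992), and of all genes 0.00566% passed. Only 3 members, Scgb1a1, Scgb3a2 and Ltf, passed the filter in the hearts alone. The others entered through their lungs and had at most 9.68 estimated counts in any heart but that of KO replicate 1. For those members the test therefore cannot show whether the KO difference in the heart is like that in the lung. The intervals were wide, for Scgb1a1 from −4.11 to 2.49 on the log2 scale around a difference of −0.81, so the interval holds large differences between the organs in either direction. Without the heart of KO replicate 1, the estimates of 6 members changed sign and all 9 were positive, from 0.36 for Pigr to 2.07 for Ltf, with limma adjusted p from 0.811 to 0.971. With that heart left out, most members rest on few or no counts in the remaining hearts. The value for Ltf includes WT heart values that rest on 1.03 to 2.46 estimated counts. The shared sign therefore does not show a difference between the organs.

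Reads were also divided among annotated transcripts by the authors' estimates. Bpifb1 has 2 first exons whose starts lie 9.56 kb apart, in transcripts of the same coding length (1422 bases). The upstream first exon (ENSMUST00000081816) held 88.65% to 100% of the Bpifb1 counts in the lungs and 98.6% in the heart of KO replicate 1. Of the other 5 hearts, with 0.971 to 5.30 estimated counts of Bpifb1, 4 gave all of them to the downstream first exon (ENSMUST00000028987) and WT replicate 2 gave all to the upstream one. The downstream exon took 0% to 3.03% in the WT lungs and 7.89%, 11.35% and 4.04% in the KO lungs of replicates 1, 2 and 3. These shares rest on 0, 5.87 and 0 estimated counts in the WT lungs and 52.4, 330.5 and 29.4 in the KO lungs. They were not tested between genotypes, and how often other genes split in this way was not counted. The few counts in the hearts do not settle which start was used there.

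Scgb3a1 has 2 coding transcripts that begin in different exons, shown here because they would change the start of the protein. Both are written 5′ to 3′ as the first coding stretch on GRCm39, plus strand, with the start codon in capitals.
Scgb3a1 main, ENSMUST00000043873, chr11:49554488-49554542: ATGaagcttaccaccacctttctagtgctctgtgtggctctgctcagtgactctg
Scgb3a1 alternative, ENSMUST00000076006, chr11:49554926-49554950: ATGtccccacaatcagcaaggcaca

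Both stretches, of 55 and 25 bases, leave 1 base past whole codons and join the same second coding exon (chr11:49555197-49555432), so the reading frame after the junction is the same, with 312 and 282 coding bases in all. The main transcript held 90.6% to 95.1% of the Scgb3a1 counts in the lungs, and the alternative 4.86% to 9.40%. In the lung of KO replicate 2, where Scgb3a1 was highest, the alternative share was 8.03%, inside the WT range of 4.86% to 9.40%. In the heart of KO replicate 1 the main transcript held 95.9%.

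Ltf came from its full-length transcript (ENSMUST00000035077) at 85.4% to 100% of counts in the lungs and 100% in the heart of KO replicate 1. A short transcript with a retained intron took 9.25% in lung KO replicate 2 and 14.6% in lung KO replicate 3. In the WT hearts the 1.03 to 2.46 estimated counts of Ltf all fell on short transcripts of the annotation and none on the full-length one. Pigr and Reg3g were read mainly from the full-length transcript in every lung, at 88.1% to 100% and 96.4% to 100%.

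The genes whose lung-to-lung pattern was most like a member's were sought among 1013 genes with a mean of at least 6 and an SD within genotype of at least 0.5. For Bpifa1 they were mt-Co2 (Pearson r = 0.98 over 6 lungs), then the members Scgb3a1, Bpifb1 and Ltf (0.96, 0.96 and 0.94) and Cytl1 (0.85), a cartilage marker. For Reg3g they were Tmem45b, Ifi27l2a, Amy1, Tgtp1 and B3galt2 (0.98, 0.98, 0.97, 0.94 and 0.93), of which Ifi27l2a and Tgtp1 are known as interferon-induced genes. Scgb1a1 was most like Maml2, a Notch coactivator, Dcdc2a, Stc1, H19 and Pcdhga4 (0.99, 0.98, 0.98, 0.98 and 0.96), none of them a member. With 6 lungs and 1013 candidates, r over 0.9 was reached by 13 genes for Scgb1a1, 8 for Reg3g and 4 for Bpifa1.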

How the data were processed

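Lung and heart RNA of 6 mice was sequenced from TruSeq stranded total RNA libraries. The authors trimmed reads with cutadapt and estimated transcript abundance with Salmon on mm39, and the submitters' notes also list STAR and limma 3.42.2. Gene and transcript values were used, and both were deposited by the authors on a log2 scale: gene values and, for each transcript, the log2 of 1 plus the estimated count. How the authors went from transcripts to gene values is not given in the sources used here, and for Ltf and Pigr the gene value is not the plain sum of transcripts.

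Gene values were tested with limma 3.58.1 in R 4.3.3 (variance trend, Benjamini-Hochberg adjustment). Genes entered with a gene value of at least 3.46, the log2 of 1 plus 10, in at least 3 libraries. Gene values carry a scaling that differs between libraries, so 3.46 is not a fixed number of counts. A call needed an adjusted p under 0.05, a fold of at least 1.5 and a group mean of at least 6. Lung and heart comparisons used all 12 libraries and share them. Single values were also tested by an exact permutation test. Levels between genes were compared per transcript length. Upstream windows and near copies (BLAST 2.17.0) came from GRCm39 with GENCODE vM39. The fits were also run on simulated data, with known changes placed only in abundant genes of low spread. This says nothing of how well a change would be found in the members that vary widely.

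The members and gene lists were chosen with earlier results of these data known. The 9 members were always named, together with up to 4 genes of highest mean in each list, called genes and defining genes at 0, and other genes named from the lists were chosen after their values were seen. Likeness named 5 genes for each of 3 members. The same mouse gave lung and heart, so the replicate number pairs the libraries across organs. The deviations of a mouse's lung and heart correlated at −0.064 to 0.139 over 17524 genes, and the mouse block had a consensus correlation of −0.0075. Nothing in the labels says how the mice were related or what a shared prefix marks. The p-values measure the spread between these mice and treat them as independent. Depth was 17674788 to 35862932 estimated counts a library, and a floor of 3 counts covers counting error only. Alternatives changed the filter, offset, variance trend, test, gene summary, scaling and libraries.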

Additional observations from a re-analysis of the deposited data

How the results depend on the processing

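Of 908 values of the members under alternatives, 856 kept their direction and their side of the threshold, 46 changed direction (37 in the lung against heart difference of the KO effect, 5 in lung KO minus WT and 4 in heart KO minus WT) and 6 lost a call. In lung KO minus WT, Ltf was −0.04 without WT replicate 2, −0.18 without KO replicate 2 and −0.86 without both, its values without 1 library running from −0.18 to 1.75, and without both Bpifa1 was −0.26 and Reg3g −0.20. In heart KO minus WT, Ltf was 0.088 with an offset of 10, and without 1 heart Ltf ran from −1.42 to 0.68 and Scgb3a2 from −0.22 to 3.10. The difference of the KO effect between organs took both signs without 1 library, from −3.21 to 1.31 for Bpifa1, −0.75 to 1.46 for Bpifb1, −0.032 to 2.07 for Ltf, −1.43 to 1.95 for Muc5b, −2.35 to 0.36 for Pigr, −1.36 to 0.76 for Reg3g, −2.21 to 0.37 for Scgb1a1, −1.14 to 1.69 for Scgb3a1 and −2.22 to 1.09 for Scgb3a2. It was 0.53 for Muc5b and 0.52 for Reg3g with an offset of 10. With summed transcripts it was −1.33 for Ltf, 0.094 for Pigr and −0.018 for Scgb3a1. With equal totals it was −0.0037 for Bpifb1, −1.44 for Ltf and −0.10 for Scgb3a1, and with the median of ratios −0.040, −1.49 and −0.13. Reg3g lung minus heart in WT fell under the group mean of 6 with the median of ratios (5.98) and without lung WT replicate 1 or 3 (5.76 and 5.37).

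Over all genes, requiring a gene value of at least 3.46 in every library left 1 call in place of 11 in lung KO minus WT. In the heart it left 7 in place of 13, with fewer genes tested in both. Without 1 library the heart gave 10 to 21 calls. The difference between organs gave 1 call, 4 with an offset of 10, 4 without the variance trend, 0 with limma-voom (1392 genes had an unadjusted p under 0.05 in the fit of the gene values), 2 with equal totals and 0 to 6 without 1 library. Except where the construction shows it, the cause was not tested. Scaling moved the median of all genes in lung KO minus WT from 0.010 to 0.295 with limma-voom, and all 9 members stayed above that median, by 0.53 to 1.62. In lung minus heart the median moved from 0.308 to 0.858 with limma-voom and 1.09 with equal totals. With the mouse as a replicate block, 9068, 8719 and 8759 genes were called between lung and heart in all, WT and KO mice and 1 in the difference between organs, and the block changed no call of a member. A count of 3 reads 1.89 to 2.80 in a heart, which limits what can be said of the low members there.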
